A study of Arabidopsis thaliana with 24 samples.

Results

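Suspension-cultured Arabidopsis cells grown on agar were compared with whole dark-grown seedlings, both kept on the ground as the controls of a spaceflight experiment. The comparison used every ground array of the series, 6 of cells and 6 of seedlings, out of 24 arrays in all. The members were chosen by their labels alone. All material was wild-type, non-transgenic Col-0, held in the dark in the canister hardware of the mission at unit gravity and recorded as 7 days old and as fixed. The cell line came from hypocotyls, the seedling stem, and about 1 g of washed cells was spread on each 60 mm dish of nutrient agar and kept at room temperature. The seedlings came from about 75 seeds per dish of the same size, held at 4 °C before use, so that a seedling array pools the organs of many plants. RNA of both groups went through a whole-transcript amplification kit and was read on ATH1 arrays, which measure each gene with a probe set of short oligonucleotides. The labels give neither a culture passage nor the number of cell lines, and the 6 cell arrays may be plates of the same suspension.

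Cultured plant cells divide and grow without organs: they have no root tip, endodermis, vascular strand, cuticle or stomata as a seedling does, and they draw sugar and salts from the medium. A seedling in the dark follows the etiolation programme, in which gibberellin and brassinosteroid drive the hypocotyl to elongate, phytochrome A accumulates, and plastids remain without chlorophyll while stored seed oil is broken down for energy. Mitochondria and plastids carry small genomes of their own, and the amount of their RNA relative to nuclear messenger RNA differs between tissues. In bulk RNA, fewer cells of a type and less RNA per cell cannot be told apart.

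The 2 sets of arrays differed in quality as well as in material. Background was set on each array at the 95th percentile of 27 control probe sets for Bacillus genes, and a probe set counted as above it when its value was larger. The share above background was 18.7% ± 4.72 (SD, n = 6) on the cell arrays, from 11.5% to 23.1%. On the seedling arrays it was 49.9% ± 8.68 (SD, n = 6), from 39.0% to 61.5%. The groups did not overlap, with a two-sided exact permutation p of 0.00216, the smallest that 6 against 6 arrays can give (adjusted p = 0.00256 over 13 array measures). Control transcripts that are added at hybridization read higher on the cell arrays, by 2.34 log2 units for cre and by 2.38 for bioB, each with the same exact permutation p and adjusted p. Arrays of cells correlated with each other at a median Pearson r of 0.315 over all probe sets, against 0.813 between arrays of seedlings. Between a cell array and a seedling array the median was 0.334 (36 pairs). Over all probe sets, cell arrays were thus no more like each other than like seedling arrays. Over the 1059 probe sets above background on at least 5 of 6 cell arrays the median r between cell arrays was 0.765. The median SD of a probe set was 1.52 log2 units over the cell arrays and 0.83 over the seedling arrays, so low values of cells were the least reliable. After normalization the background stood at 9.42 to 10.28 log2 units on the cell arrays and at 7.25 to 8.58 on the seedling arrays. Actin signal from the 3' end over the 5' end was lower in cells (log2 ratio −0.36 ± 1.19 against 2.76 ± 0.683, SD, n = 6 each; exact permutation p = 0.00216, adjusted p = 0.00256). The ratio was also lower for GAPDH (1.44 against 2.67) and ubiquitin (1.90 against 2.84), with the same exact permutation p and adjusted p.

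**Figure D1:**
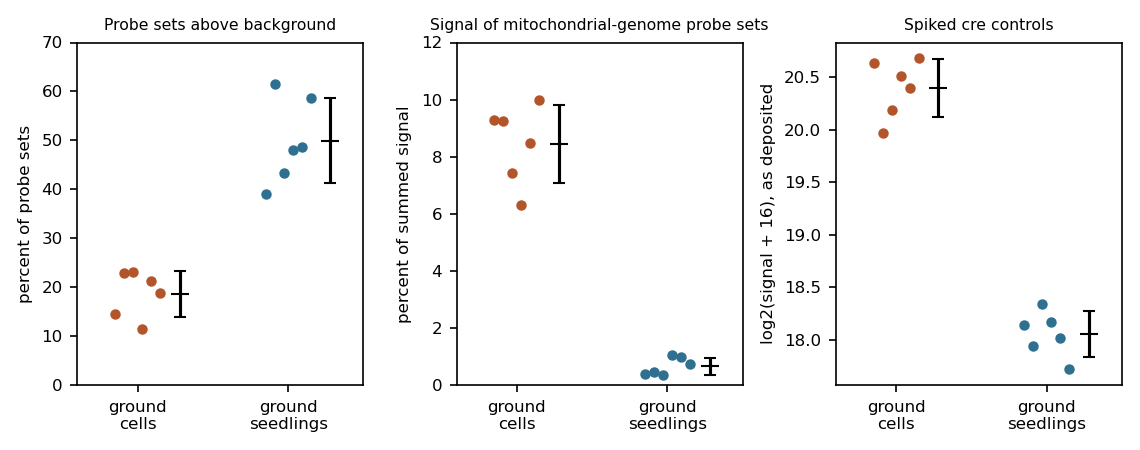
Each point is a ground array, 6 of cells and 6 of seedlings, and the bar beside it is the mean ± SD. The panels give the percent of probe sets above background, the percent of summed signal in probe sets of the mitochondrial genome, and the log2 signal of the spiked cre controls as deposited: on each the groups lie apart, with cells at 11.5% to 23.1% against 39.0% to 61.5% in the first.

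Seedling replicate 1 stood apart from the other 5 seedling arrays, and values without it are given beside the results that it moves most. Its median correlation with its own group was 0.689, and that of the group averaged 0.796 ± 0.0528 (SD, n = 6). The mean level of 31 heat shock genes was 13.08 log2 units on it, while the lowest seedling array read 9.05 and the cell arrays 9.35 to 10.21. The same array had the highest seedling mean of the lists for hypoxia (11.12) and carbon starvation (11.76), and the lowest for endodermis (6.64). Left out, 3355 probe sets were called in place of 3686, and 1852 of the 2201 lower calls and 1168 of the 1485 higher calls remained.

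Of 22746 probe sets, 3686 (16.2%) passed limma's test at a Benjamini-Hochberg adjusted p under 0.05, 1485 of them higher (6.53%) and 2201 lower (9.68%) in cells. The test ran on log2(value + 16) after quantile normalization over the 12 arrays, and a difference is always cells minus seedlings in those units. The median difference of all probe sets was 0.14, and the split depended on the scaling: 5693 were called higher and 2107 lower without quantile normalization, 2297 and 3541 with each array centred on its 75th percentile, and 82 and 10984 with arrays centred on the spiked controls, where the median difference was −1.59. Single genes named below as risen or fallen, and counts of members that rose or fell, are therefore limited to calls above background on at least 5 of 6 arrays of the brighter group, while counts of genes called higher or lower take every call. Counted by gene, each by its probe set with the highest mean over the 12 arrays, these were 190 genes higher (0.885% of 21469) and 2010 lower (9.36%) in cells. By probe set they were 220 (0.967%) and 2123 (9.33%). The 2123 lower ones were called lower under spike centring too. That centring lowers the differences as a whole (median −1.59), so it does not test the falls. Without quantile normalization, 1704 of the 2123 were called lower. Not one of the 2201 lower calls changed sign without quantile normalization or with centring on the 75th percentile. Among the 220 higher ones, 192 were called without quantile normalization and 45 under spike centring, where 81 changed sign and 3 were called lower. The 190 higher genes comprised 27 of the mitochondrial genome, 11 of the chloroplast genome and 16 of the chromosome 2 loci described with the former, and 131 were other nuclear genes. On none of the cell arrays were 1141 of the 2123 lower probe sets above background, so for these the fall is a bound and not a size. The bound exceeded 1-fold for 543 of these and 2-fold for 131. For the others the mean seedling level was itself under the lowest level measurable on the cell arrays, so no fold is given, and below their difference is called fitted. Counts of genes that fell include these, although no size of fall can be shown for them. Where only some cell arrays were above background, the fall also takes in values below it, so its size is uncertain.

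Transcripts of the mitochondrial genome were higher in cells: 29 of 30 measured genes were called higher and none lower, against 6.41% and 9.69% of all genes, and 27 of the 30 rose above background (0.885% of all genes). Without seedling replicate 1, 27 of the 30 were called higher. Their probe sets held 8.45% ± 1.36 (SD, n = 6) of the summed array signal in cells and 0.665% ± 0.297 in seedlings (exact permutation p = 0.00216, adjusted p = 0.00256), and no cell array was below 6.30% nor any seedling array above 1.04%. The median difference of the list was 4.18 on the log2 scale, 3.99 without quantile normalization and 1.62 with spike centring, where 16 of the 29 were still called higher and 2 fell below 0. Cells and seedlings did not overlap for 25 of the 30 genes (7.1% of all genes had groups that did not overlap). In 25 of the 30 the SD was smaller over the cell arrays, the opposite of the median over all probe sets.

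Subunits of respiratory complex I, the NADH dehydrogenase, are encoded by the nad genes, and all 8 probe sets for them were called higher, by 2.63 to 5.19. On the cell arrays nad7 lay between 12.03 and 13.50 with a median of 13.21, and on the seedling arrays between 6.18 and 8.90 with a median of 8.14. The nad7 difference was 5.19 ± 0.64 (SE; limma adjusted p = 3.85e-06), and every cell array was above every seedling array. Both measured subunits of cytochrome c oxidase, complex IV, rose as well. The larger value belonged to cox1 (5.02 ± 0.61, adjusted p = 3.54e-06), a gene named here after its values were seen, with cells from 17.22 to 17.67 and seedlings from 11.72 to 13.64. The 3 ccb genes, which act in cytochrome c maturation, were called higher by 2.29 to 4.85. The smallest of these differences, that of ccb203, was 1.67 (limma adjusted p = 0.119) without seedling replicate 1, which read 6.24 against 8.72 to 10.44 on the other 5 seedling arrays, and 0.003 with spike centring. The gene listed as mitochondria.1 also lost its call without that array (1.68, adjusted p = 0.076). Both were named after their values were seen.

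Open reading frames of unknown function made up 14 of the 30, of which 13 were called higher and 11 had groups that did not overlap. For orf118 the cell arrays ranged from 12.50 to 13.28 (median 13.15) and the seedling arrays from 5.46 to 9.25 (median 7.75), a difference of 5.49 ± 0.68 (SE; limma adjusted p = 3.85e-06). For orf107c the ranges were 12.79 to 13.75 (median 13.40) and 6.78 to 8.88 (median 8.33), a difference of 5.35 ± 0.63 (limma adjusted p = 2.36e-06). In orf109, cells read 13.30 to 13.90 (median 13.62) and seedlings 8.58 to 9.85 (median 8.79), which gave 4.59 ± 0.60 (limma adjusted p = 8.65e-06). A further frame, orf110a, which the annotation does not place in a single genome, rose by 5.78 ± 0.68 (limma adjusted p = 2.51e-06), from seedlings at 6.06 to 9.79 (median 9.55) to cells at 14.23 to 14.74 (median 14.65). In all 4 frames the groups stood apart. The one frame not called was orf111b, at a difference of −0.06, with cells scattered from 5.25 to 10.38.

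**Figure D2:**
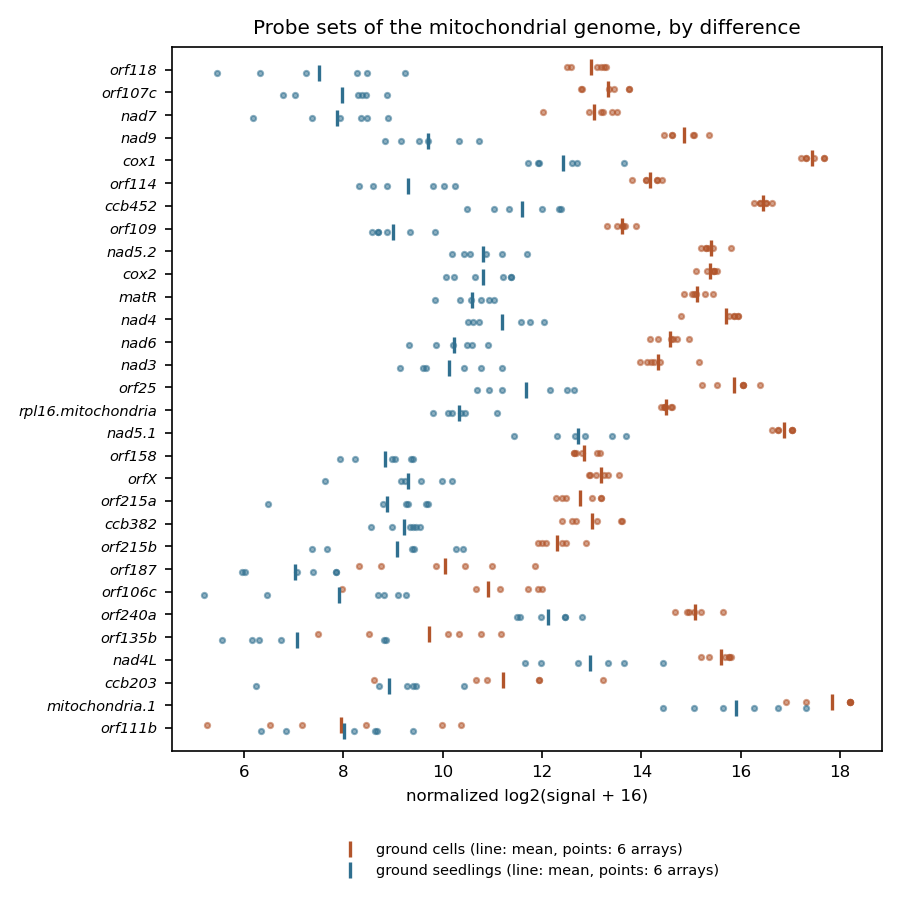
Rows are the 30 genes of the mitochondrial genome on the array, ordered by difference, and the axis is the normalized log2 signal. Points are single ground arrays and short lines are group means: cells lie above seedlings for 25 genes with no overlap, and orf111b at the bottom shows no separation.

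Arabidopsis chromosome 2 carries a near-complete copy of the mitochondrial genome, and its loci were measured as well. Of 46 nuclear loci with names from AT2G076 to AT2G078, 22 were called higher and none lower, against 6.41% and 9.69% of all genes, with a median of 1.93. Above background 16 of the 46 rose (0.885% of all genes). Probe sets for the copy and for the original can bind the same transcripts, so which genome the RNA came from was not resolved. Both lists had similar differences in the 12 flight arrays, which share no sample with these: a median of 4.06 for the mitochondrial genome and 2.01 for the chromosome 2 loci.

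Chloroplast-encoded genes moved in opposite directions within the genome. Of 69 measured, 11 rose (15.9%) and 3 fell (4.35%), against 0.885% and 9.36% of all genes, so falls were rarer than among all genes. The list's median difference was 0.30, but −0.70 in the flight arrays. On the ground arrays it was −0.39 without quantile normalization, where all genes were at 0.75. It was −2.75 with spike centring, where all genes were at −1.61, and 0.06 without seedling replicate 1. The share of array signal, 5.17% ± 1.86 in cells and 3.66% ± 1.91 in seedlings (SD, n = 6 each), did not pass the exact permutation test (p = 0.188, adjusted p = 0.188). The protease subunit gene clpP was highest among the rises: cells read 17.22 to 18.00 (median 17.26) and seedlings 12.41 to 15.14 (median 14.21), a difference of 3.37 ± 0.64 (limma adjusted p = 0.000703) with no overlap. The plastid ribosome gene rpl14 rose as well (2.39, adjusted p = 0.00945). In the flight arrays clpP was called higher (1.99, limma adjusted p = 0.00987) and rpl14 was not (1.28, adjusted p = 0.0769). Of the 11 rises, 10 lay below 0 with spike centring, rpl14 among them, and clpP was at 1.41 there. Falls were found in 3 genes of photosystem II, which splits water in the light. The antenna gene psbC fell by 3.18 ± 0.71 (limma adjusted p = 0.00315), with cells at 8.39 to 11.71 (median 10.37) and seedlings at 11.31 to 14.80 (median 13.82), and its reaction centre partners psbD and psbA fell by 2.65 (adjusted p = 0.0107) and by 1.84 (adjusted p = 0.0481). The groups overlapped in all 3, and the lowest seedling array in each was replicate 1. Without that array the 3 falls were 3.56, 3.05 and 2.27 in size, the rises numbered 7 and the genes called lower 4. The fourth was psbK, another gene of photosystem II, named after its values were seen, at −2.33 (limma adjusted p = 0.014) without that array and −1.85 (adjusted p = 0.0525) with it.

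Among nuclear genes, the largest rise belonged to the plant defensin PDF1.1, a small antifungal peptide known from seeds. The cell arrays read 12.39 to 13.26 with a median of 12.77, and the seedling arrays 5.19 to 5.85 with a median of 5.46. The seedling probe set was not above background on any array, so the rise was at least 27.9-fold, with a fitted difference of 7.26 ± 0.59 (SE; limma adjusted p = 1.92e-09). Spike centring left it at 4.91. Here a fold against a group below background is the mean of the bright group over the lowest level that was above background on each dim array, or over the dim probe set's own level where that was higher.

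Other nuclear genes among the largest rises follow. ARD3 encodes an acireductone dioxygenase of the methionine salvage cycle, which recycles the by-product of ethylene synthesis. It read 13.75 to 14.57 in cells (median 14.13) and 5.67 to 13.33 in seedlings (median 7.84), a difference of 5.69 ± 0.84 (limma adjusted p = 4.61e-05). The 13.33 was seedling replicate 1, while the other 5 seedling arrays ended at 8.60, and without it the difference was 6.54 (adjusted p = 1.27e-06). ICL, the isocitrate lyase of the glyoxylate cycle that turns storage lipid into sugar in germinating seeds, behaved likewise. Its cell arrays lay at 14.64 to 15.69 (median 15.26), seedling replicate 1 at 14.25 and the other 5 at 8.51 to 9.98. The ICL difference was 5.27 ± 0.78 (limma adjusted p = 4.51e-05) and 6.01 (adjusted p = 1.54e-06) without that array.

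TH8, an h-type thioredoxin, which reduces disulphide bonds in other proteins, read 13.41 to 14.36 in cells (median 13.85) and 6.44 to 10.13 in seedlings (median 8.17). It rose by 5.49 ± 0.66 (limma adjusted p = 2.88e-06). PHI-1, named for its induction by phosphate in tobacco cells, spanned 13.25 to 13.93 in cells (median 13.66) and 6.79 to 10.41 in seedlings (median 7.94), a rise of 5.41 ± 0.66 (limma adjusted p = 3.68e-06). CYP81D8, a cytochrome P450 gene that responds to many stresses, had cells at 12.46 to 13.99 (median 13.31) and seedlings at 5.88 to 12.20 (median 8.06), a rise of 4.88 ± 0.77 (limma adjusted p = 9.45e-05). In these 3 genes the groups did not overlap and the highest seedling array was again replicate 1. The rises of ARD3, ICL, TH8, PHI-1 and CYP81D8 were also called with spike centring, at 3.08, 2.98, 2.94, 2.74 and 2.18. Of the 131 nuclear rises outside the chromosome 2 copy, 16 were called under that centring.

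**Figure D3:**
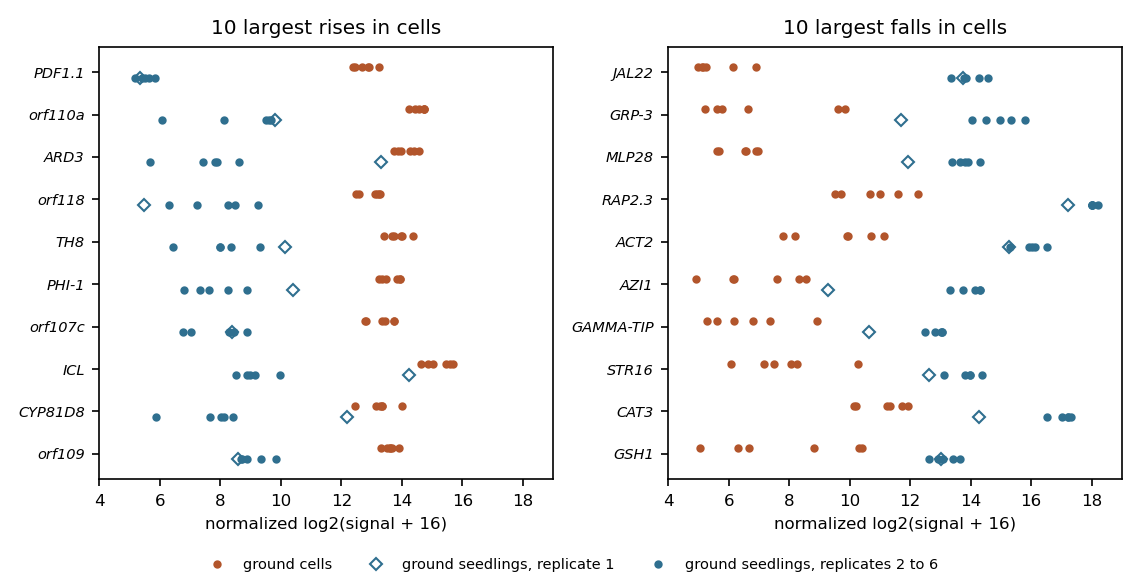
Normalized log2 signal on each of the 12 ground arrays for the 10 largest rises and the 10 largest falls among genes with a symbol whose groups did not overlap. Open diamonds mark seedling replicate 1, which lies nearest the cells for ARD3 at 13.33 and for ICL at 14.25.

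Among genes with a symbol, the largest fall was that of JAL22, a jacalin-related lectin, a carbohydrate-binding protein. Its cell arrays read 4.99 to 6.91 (median 5.21) and its seedling arrays 13.36 to 14.57 (median 13.82). Nothing was above background in cells, so the fall was at least 18.4-fold, with a fitted difference of −8.34 ± 0.62 (SE; limma adjusted p = 5.14e-10). GRP-3, a glycine-rich protein of the cell wall, was at 5.23 to 9.83 in cells (median 6.21) and 11.70 to 15.80 in seedlings (median 14.72). It fell at least 25.3-fold (difference −7.27 ± 0.83, limma adjusted p = 1.76e-06). The major latex protein-like gene MLP28, of a family that binds small hydrophobic molecules, ran from 5.60 to 6.96 in cells (median 6.56) and from 11.93 to 14.30 in seedlings (median 13.73), a fall of at least 13.7-fold (difference −7.12 ± 0.63, limma adjusted p = 9.56e-09). The groups stood apart in all 3.

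RAP2.3 is a group VII ethylene response factor, a transcription factor whose protein is degraded when oxygen is present. Its seedling arrays had 17.22 at the lowest, a median of 18.00 and a mean of 17.90 ± 0.344 (SD, n = 6). Its cell arrays read 9.50 to 12.27 (median 10.84), a difference of −7.11 ± 0.64 (limma adjusted p = 1.2e-08). CAT3, a catalase that breaks down hydrogen peroxide, was above background on all 12 arrays, with cells at 10.14 to 11.92 (median 11.28) and seedlings at 14.26 to 17.31 (median 17.12). Its difference was −5.49 ± 0.67 (limma adjusted p = 3.6e-06), and the 14.26 was seedling replicate 1. GSH1, the glutamate-cysteine ligase that opens glutathione synthesis, scattered from 5.07 to 10.39 in cells (median 7.74) and lay at 12.61 to 13.64 in seedlings (median 13.04). Its difference was −5.18 ± 0.79 (limma adjusted p = 5.87e-05). STR16, a sulphurtransferase, read 6.09 to 10.27 (median 7.78) against 12.61 to 14.36 (median 13.89), a difference of −5.75 ± 0.69 (limma adjusted p = 2.79e-06). None of the 4 overlapped between the groups.

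Water channels were the list with the largest share of falls. Of 26 measured aquaporins 10 fell (38.5%), 0 rose above background, and the median difference was −0.94, while 9.36% of all genes fell and the median of all genes was 0.13. Without seedling replicate 1 the count of falls was again 10. The tonoplast channel GAMMA-TIP read 5.27 to 8.91 in cells (median 6.49) and 10.63 to 13.06 in seedlings (median 12.92). It was below background on every cell array and fell at least 6.90-fold (difference −5.82 ± 0.70, limma adjusted p = 2.86e-06), and the groups did not overlap. A second tonoplast channel, TIP1;2, fell by 4.22 (adjusted p = 0.000299). The plasma membrane channel PIP1A fell by 4.64 (adjusted p = 0.000357), with a single cell array, replicate 6, at 11.23, inside the seedling range.

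The cytoskeleton list, actins and tubulins, had 6 falls (35.3%, against 9.36% of all genes) and 0 rises among 17 genes and a median of −1.43. ACT2, the main actin of vegetative tissue, was at 7.79 to 11.15 in cells (median 9.93) and 15.28 to 16.51 in seedlings (median 15.99), a difference of −6.25 ± 0.67 (limma adjusted p = 6.29e-07) with no overlap. Only 3 of 6 cell arrays were above background for it, so the size of its fall is uncertain. The tubulin gene TUB6 fell by 2.68 (adjusted p = 0.012). TUB5 fell at least 1.23-fold (difference −2.39, adjusted p = 0.0418). The groups overlapped in both. The 3' to 5' ratio was lower on the cell arrays for actin, and for GAPDH and ubiquitin as well. Its part in these falls was not tested.

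Genes of gibberellin and brassinosteroid, the hormones of hypocotyl elongation, gave 14 falls above background and 0 such rises among 47, with a median of −1.10. These falls were 29.8% of the list, against 9.36% of all genes. GASA14, a gibberellin-regulated cysteine-rich peptide, was at 5.23 to 8.78 in cells (median 7.17) and at 14.59 to 15.28 on 5 seedling arrays, but at 7.63 on seedling replicate 1. It fell at least 16.3-fold (difference −6.81 ± 0.96, limma adjusted p = 2.59e-05), and by 7.93 (adjusted p = 1.79e-07) without that array. BRI1, the brassinosteroid receptor, read 6.69 to 8.76 in cells (median 7.24) and 10.11 to 11.65 in seedlings (median 11.11), a fall of at least 2.34-fold (difference −3.53 ± 0.63, limma adjusted p = 0.000353). BIN2, the kinase that the receptor pathway switches off, fell at least 2.64-fold (difference −3.39, adjusted p = 0.00122). Receptor and kinase showed no overlap between groups.

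Genes of light signalling and growth in darkness fell in 10 of 38 (26.3%, against 9.36% of all genes), with a median of −0.72. Without seedling replicate 1, 7 were called lower. The photoreceptor gene PHYA was at 5.35 to 9.50 in cells (median 7.26) and 11.11 to 11.81 in seedlings (median 11.61), a difference of −4.19 ± 0.73 (limma adjusted p = 0.00029). HFR1, a helix-loop-helix factor that acts downstream of phytochrome A, fell at least 2.71-fold (difference −3.48, adjusted p = 0.00123). BBX21, a zinc finger factor of light responses, fell by 3.43 (adjusted p = 0.00186), with 1 of 6 cell arrays above background. Cell and seedling arrays stood apart for all 3.

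The list of nuclear photosystem and antenna genes gave 8 falls (19.5%, against 9.36% of all genes) and 0 rises among 41, median −0.94. Both materials were kept in the dark. The list as chosen also named genes of electron carriers, ATP synthase and carbon fixation. On at least 5 of 6 arrays 24 of the 41 were above background in seedlings and 0 in cells, against 37.4% and 4.45% of all genes. The antenna protein gene LHCB4.1 read 6.40 to 9.05 in cells (median 8.02) and 9.87 to 11.04 in seedlings (median 10.40), a fall of at least 1.61-fold (difference −2.50 ± 0.65, limma adjusted p = 0.00922). PSBR, a subunit of photosystem II, fell by 3.02 (adjusted p = 0.00913), with overlap at 2 cell arrays. In tetrapyrrole synthesis, the pathway to chlorophyll and haem, 1 of 28 genes rose and 1 fell above background. That is 3.57% each, against 0.885% and 9.36% of all genes. CHLM, a methyltransferase on the chlorophyll branch, fell at least 1.04-fold (difference −3.36, adjusted p = 0.000914). HO1, the haem oxygenase that makes the phytochrome chromophore, rose by 2.75 (adjusted p = 0.00285) with cells at 12.73 to 13.77, but lay at −0.33 with spike centring.

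Among 20 genes of hypoxia and fermentation, 3 rose (15.0%) and 6 fell (30.0%), against 0.885% and 9.36% of all genes. HRE2, an ethylene response factor induced by low oxygen, was at 11.46 to 13.05 in cells (median 12.41) and at 5.24 to 8.63 on 5 seedling arrays, with seedling replicate 1 at 12.48. It rose by 4.25 ± 0.83 (limma adjusted p = 0.00106), or 4.98 (adjusted p = 7.39e-05) without that array. ADH1, the alcohol dehydrogenase of ethanol fermentation, lay at 14.66 to 15.56 in cells (median 15.21), at 15.37 on seedling replicate 1 and at 10.78 to 12.04 on the others. Its rise was 2.97 ± 0.70 (limma adjusted p = 0.00468), or 3.61 (adjusted p = 0.000422) without the array, and 0.11 with spike centring. SUS4, a sucrose synthase that supplies sugar to glycolysis, rose by 2.80 (adjusted p = 0.00594), or 3.22 without the array and 0.08 with spike centring. Beside RAP2.3, its relatives RAP2.2 and RAP2.12, which act upstream of these targets, fell: RAP2.2 at least 4.71-fold (difference −3.50, adjusted p = 0.000643). RAP2.12 fell by 3.06 (adjusted p = 0.0071), and its groups overlapped.

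Of 31 heat shock genes, 1 rose (3.23%) and 2 fell (6.45%) above background, against 0.885% and 9.36% of all genes. Without seedling replicate 1 the counts were 3 and 2. HSP17.6A, a small heat shock chaperone, was at 8.92 to 13.71 in cells (median 12.66), at 15.64 on seedling replicate 1 and at 4.99 to 7.70 on the other 5. Its rise was 4.53 ± 1.18 (limma adjusted p = 0.00948), or 5.99 (adjusted p = 4.44e-05) without the array. Genes that dark carbon starvation induces gave 1 rise (3.1%) and 5 falls (15.6%) among 32. DIN2, a beta-glucosidase, rose by 2.66 (adjusted p = 0.0122), with cells at 13.37 to 13.95, seedling replicate 1 at 14.46 and the others at 9.78 to 10.66, and stood at −0.31 with spike centring. SEN1, a marker of dark-induced senescence, fell by 4.83 (adjusted p = 8.94e-05), and by 4.19 without the array, on which it read 15.14. In storage lipid breakdown ICL was the single rise above background, and 5 of 26 genes fell (19.2%). ACX4, an acyl-CoA oxidase of beta-oxidation, fell by 3.13 (adjusted p = 0.00273), with 1 of 6 cell arrays above background. ACX1, of the same family, fell at least 1.63-fold (difference −2.81, adjusted p = 0.00528). MFP2, the multifunctional enzyme of the next steps, fell at least 1.03-fold (difference −3.01, adjusted p = 0.00282).

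Of 33 xyloglucan endotransglucosylases, enzymes that cut and rejoin wall xyloglucan, 3 rose and 6 fell above background and the median was 0.00. Without seedling replicate 1, 4 of the 33 were called lower. XTH18 was at 12.68 to 13.24 in cells (median 12.86) and 9.78 to 10.29 in seedlings (median 10.23), a rise of 2.74 ± 0.59 (limma adjusted p = 0.00235), but it lay at −0.18 with spike centring. XTH22, a touch-induced member, rose by 3.01 (adjusted p = 0.00226), at 0.57 with spike centring. XTH23 rose by 2.48 (adjusted p = 0.0126), at 0.08. In the other direction, XTH4 read 5.96 to 9.57 in cells (median 7.15) and 12.58 to 13.53 on 5 seedling arrays, with seedling replicate 1 at 8.10. It fell at least 5.48-fold (difference −4.80 ± 0.83, limma adjusted p = 0.000267), and by 5.47 without that array. XTH28 fell by 3.51 (adjusted p = 0.00168). XTH15 fell at least 1.64-fold (difference −3.24, adjusted p = 0.0022). In these 3 the groups overlapped at seedling replicate 1. Arabinogalactan proteins, glycoproteins of the wall and membrane, fell in 7 of 44 (15.9%, against 9.36% of all genes) and rose above background in 0. FLA2 was called lower with no overlap (fitted difference −3.66, adjusted p = 0.000158). FLA9 fell at least 1.49-fold (difference −2.95, adjusted p = 0.00418). AGP4 fell at least 1.72-fold (difference −3.06, adjusted p = 0.00666). Expansins, which loosen walls, gave 1 fall among 26 (3.85%, under the share of all genes), EXPA11 (fitted −2.69, adjusted p = 0.0134).

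**Figure D4:**
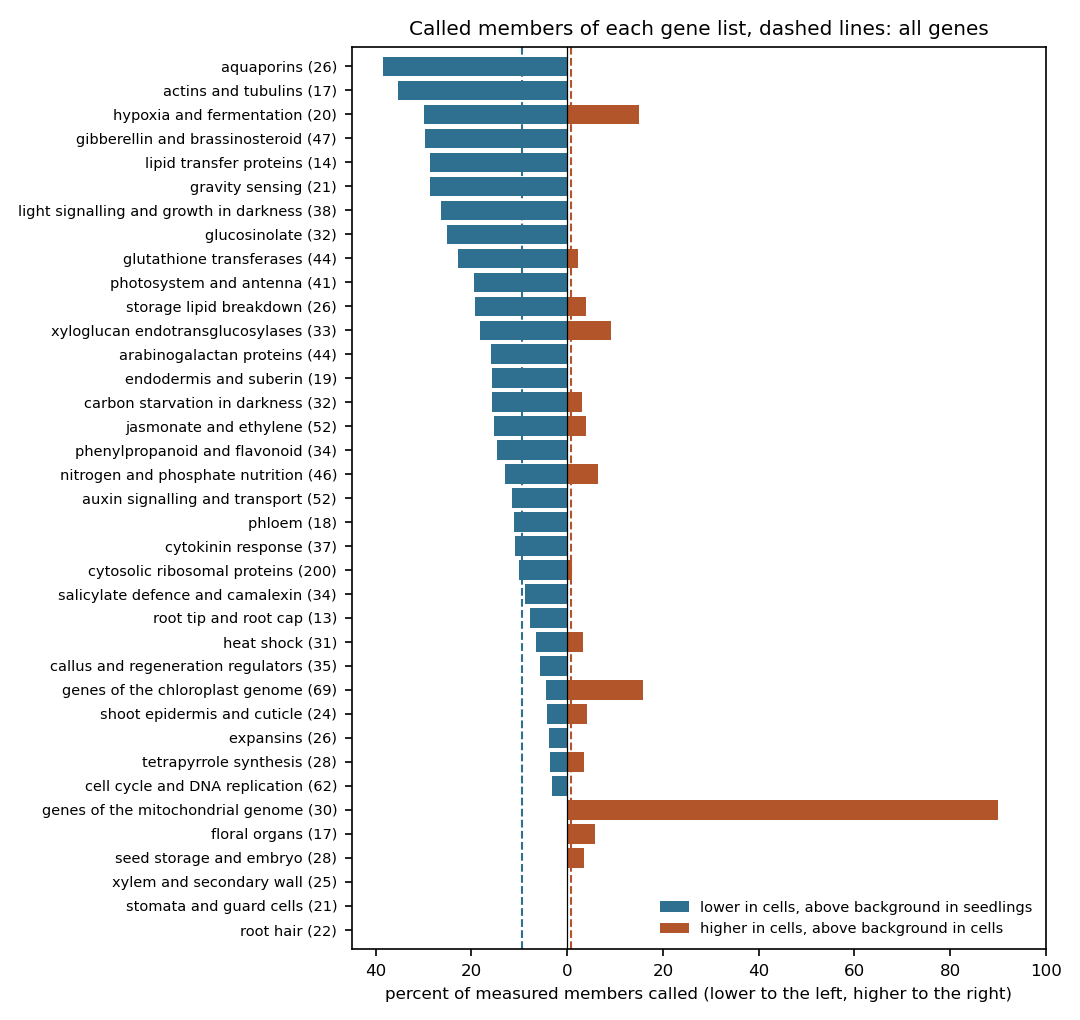
Bars give the percent of measured members of each gene list called lower (left, above background in seedlings) or higher (right, above background in cells), with the number measured in brackets. Dashed lines mark all genes, 9.36% lower and 0.885% higher: the mitochondrial genome stands alone on the right, with 27 of 30, and aquaporins lead on the left, with 10 of 26.

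Glutathione transferases, which attach glutathione to toxic compounds, gave 10 falls (22.7%) and 1 rise (2.27%) among 44, and 7 lower calls without seedling replicate 1. Of all genes 9.36% fell and 0.885% rose. GSTU19 was that rise, with cells at 14.80 to 16.13 (median 15.38) and seedlings at 11.86 to 13.65 (median 12.45), a difference of 2.91 ± 0.61 (limma adjusted p = 0.00197), which became 0.02 with spike centring. GSTF10 fell by 4.61 (adjusted p = 0.000409), from 12.91 to 13.13 on 5 seedling arrays and 10.12 on replicate 1. GSTU27 fell at least 5.30-fold (difference −4.20, adjusted p = 0.000575). GSTF9 fell by 3.94 (adjusted p = 0.0026). Glucosinolate genes, of the sulphur-rich defence compounds of the cabbage family, fell in 8 of 32 (25.0%). CYP83B1, an enzyme of the indole branch, fell by 3.40 (adjusted p = 0.00232), with 1 of 6 cell arrays above background. MAM1, which lengthens methionine for the aliphatic branch, was called lower at a fitted difference of −2.95 (adjusted p = 0.00308) with no overlap between the groups. GTR2, a transporter of the products, was called lower at a fitted difference of −2.70 (adjusted p = 0.00402), and its groups did not overlap either.

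Jasmonate and ethylene genes gave 2 rises (3.85%) and 8 falls (15.4%) above background among 52, against 0.885% and 9.36% of all genes. OPR3, a reductase of jasmonate synthesis, was called lower at a fitted −2.96 (adjusted p = 0.00329). PR4, a chitin-binding protein of ethylene-linked defence, fell by 2.88 (adjusted p = 0.00457). LOX1, a lipoxygenase, rose by 2.55 (adjusted p = 0.00983) and lay at −0.24 with spike centring. Salicylate and camalexin genes gave 3 falls among 34 (8.82%, near the 9.36% of all genes), with the chitinase gene PR3 called lower at a fitted −2.63 (adjusted p = 0.00625). Phenylpropanoid genes, which feed lignin and flavonoids, gave 5 falls among 34 (14.7%). CAD5, which makes lignin alcohols, was at −2.98 (adjusted p = 0.00877), with 1 of 6 cell arrays above background. 4CL1, a ligase early in the pathway, was at a fitted −2.90 (adjusted p = 0.015). Neither the salicylate nor the phenylpropanoid list held a rise above background.

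Of 46 genes for nitrogen and phosphate nutrition, 3 rose (6.52%) and 6 fell (13.0%) above background, against 0.885% and 9.36% of all genes. PS2, a phosphatase induced by phosphate starvation, read 8.85 to 12.11 in cells (median 11.70) and 5.13 to 6.62 in seedlings (median 6.30), below background on every seedling array, a rise of at least 8.62-fold (difference 5.02 ± 0.68, limma adjusted p = 1.44e-05) that was 2.91 with spike centring. SPX3, a phosphate-starvation regulator, rose by 2.65 (adjusted p = 0.00594), or 0.48 with spike centring. GLN1;3, a cytosolic glutamine synthetase, rose by 2.22 (adjusted p = 0.0135) and was at −0.73 there. The nitrate transporter NRT1.5, which loads nitrate into the xylem, fell at least 1.25-fold (difference −3.80, adjusted p = 0.0016). NRT1.1, the dual-affinity nitrate carrier, fell by 2.94 (adjusted p = 0.0141). PHO1, which loads phosphate into the xylem, fell by 2.83 (adjusted p = 0.01).

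Auxin genes fell in 6 of 52 (11.5%) and cytokinin genes in 4 of 37 (10.8%), both near the share of all genes. The auxin repressor gene IAA7 fell by 3.01 (adjusted p = 0.00274). IAA28, another such repressor, fell at least 1.26-fold (difference −2.55, adjusted p = 0.0144). LOG8, which activates cytokinin, fell by 2.99 (adjusted p = 0.00425). HK3, a cytokinin receptor, fell by 2.67 (adjusted p = 0.00776). Gravity sensing genes fell in 6 of 21 (28.6%, against 9.36% of all genes), with SGR2, a phospholipase needed for shoot gravitropism, at a fitted −2.78 (adjusted p = 0.00446). Of 62 genes of the cell cycle and DNA replication, 0 were above background on at least 5 of 6 cell arrays (4.45% of all genes). Above background 2 fell (3.23%, against 9.36% of all genes), and the list's median was 0.30. SIM, an inhibitor of cyclin-dependent kinases that promotes endoreduplication, read 5.08 to 8.23 in cells (median 6.95) and 11.00 to 11.47 in seedlings (median 11.32), a fall of at least 2.92-fold (difference −4.36 ± 0.64, limma adjusted p = 3.75e-05). CDKA;1, the main cell cycle kinase, fell by 1.87 (adjusted p = 0.0483), and had an adjusted p of 0.0608 without seedling replicate 1.

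Of 200 measured genes of cytosolic ribosomal proteins, 2 rose and 20 fell above background (1.0% and 10.0%, near the 0.885% and 9.36% of all genes), and the median was −0.37, with all genes at 0.13. Without quantile normalization the median was −0.77 with all genes at 0.75, and on the flight arrays −1.12 with all genes at 0.06. RP1, a protein of the large subunit, fell by 4.53 ± 0.72 (limma adjusted p = 0.00011), with cells at 8.25 to 11.87 and seedlings at 13.60 to 16.04. RS27A, of the small subunit, fell at least 2.86-fold (difference −3.43, adjusted p = 0.00142). The gene AT5G47930 fell at least 1.48-fold (difference −3.30, adjusted p = 0.00165). Opposite to them AT5G02450 rose by 1.97 (adjusted p = 0.0269), and was at −1.29 with spike centring.

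Markers of organs were mostly below background in both materials. On at least 5 of 6 arrays, cells had 0 of 22 root hair genes, 0 of 19 endodermis genes, 0 of 13 root tip genes, 0 of 21 stomatal genes, 0 of 25 xylem genes and 0 of 18 phloem genes above background, and seedlings had 2, 12, 2, 1, 2 and 5. Of all genes 4.45% were so in cells and 37.4% in seedlings, so these counts do not test the labels. Of these lists only that of the endodermis exceeded the share of all genes in seedlings. Shoot epidermis and cuticle genes exceeded both shares, with 2 of 24 in cells (8.33%) and 12 in seedlings (50%). The genes called lower in the endodermis list were 3 (15.8%, against 9.36% of all genes falling), all of the Casparian strip, the root's diffusion barrier. ESB1, which places lignin in the strip, was at 5.16 to 9.87 in cells (median 6.73) and 11.19 to 12.29 on 5 seedling arrays, with replicate 1 at 6.21. It fell by 3.72 ± 0.93 (limma adjusted p = 0.00767), and by 4.52 (adjusted p = 0.00121) without that array. CASP2, a scaffold protein of the strip, was called lower at a fitted −2.03 (adjusted p = 0.0413). MYB36, the factor that switches the strip genes on, was called lower at a fitted −2.29 (adjusted p = 0.0262). The mean level of the root hair genes was 7.16 to 8.15 on cell arrays and 6.77 to 7.58 on seedling arrays, which overlap. That of the 21 stomatal genes was 7.02 to 8.28 on cell arrays and 6.27 to 6.95 on seedling arrays, with no overlap. Background stood at 9.42 to 10.28 on the cell arrays and at 7.25 to 8.58 on the seedling arrays.

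Other markers fell singly. PYK10, a root beta-glucosidase of endoplasmic reticulum bodies, was at 7.96 to 11.44 in cells (median 10.63) and 11.42 to 15.64 in seedlings (median 14.87), a difference of −4.23 ± 0.75 (limma adjusted p = 0.000382), and the groups met at seedling replicate 1. PP2-A1, a phloem lectin, was called lower at a fitted −2.46 (adjusted p = 0.0304). SWEET11, a sucrose exporter of the phloem, fell by 2.58 (adjusted p = 0.0135). Lipid transfer proteins fell in 4 of 14 (28.6%, against 9.36% of all genes). AZI1, a relative of theirs that acts in systemic resistance, fell at least 11.0-fold, from 9.28 to 14.31 in seedlings (median 13.95) to 4.92 to 8.54 in cells (median 6.90), a difference of −6.23 ± 0.81 (limma adjusted p = 8.83e-06). EARLI1, of the same subfamily, fell at least 2.61-fold (difference −3.89, adjusted p = 0.00208). Among 24 shoot epidermis and cuticle genes, 1 rose and 1 fell above background (4.17% each, against 0.885% and 9.36% of all genes). Of the shoot epidermis, FDH, an enzyme of long fatty acids in the cuticle, was called lower at a fitted −2.26 (adjusted p = 0.0205), while DCR, an acyltransferase of cutin, rose by 2.75 (adjusted p = 0.00438), with cells at 9.46 to 11.28 and seedlings at 6.36 to 8.98, and stood at 0.66 with spike centring.

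Of 35 regulators of callus and regeneration, the list chosen for the cultured state, 0 were above background on at least 5 of 6 cell arrays (4.45% of all genes) and 13 on as many seedling arrays (37.4% of all genes), so the list does not test the label. KNAT1, a homeobox gene of the shoot meristem, fell by 3.28 (adjusted p = 0.00286). L1L, a relative of the embryo regulator LEC1, read 9.43 to 11.22 in cells (median 10.79) and 5.26 to 7.76 in seedlings (median 6.46), a rise of 4.03 ± 0.67 (limma adjusted p = 0.000168), or 1.96 with spike centring. PI, a floral homeotic gene of petals and stamens, read 9.80 to 11.74 in cells (median 10.69) and 5.15 to 8.73 in seedlings (median 7.69), a rise of 3.51 ± 0.69 (limma adjusted p = 0.00111), or 1.47 with spike centring. For both the groups stood apart, and each was the only gene of its list above background on at least 5 of 6 cell arrays, of 28 seed and 17 floral genes.

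The same materials were also measured in orbit, where cells and seedlings spent 12 days and 21 hours, on 12 arrays that share no sample with the ground arrays. Fitted alone, they gave 6270 called probe sets (27.6%). Of the 3686 ground calls, 3594 (97.5%) had the same sign there, against 80.6% of all probe sets, 2143 were called with it and 0 with the opposite one. Of the higher calls above background 214 of 220 kept their sign, and of the lower ones 2099 of 2123. Flight arrays also differed in quality: 56.6% to 66.7% of probe sets were above background in seedlings. In cells the share was 9.94% to 29.4%, apart from replicate 5 at 76.7%. The part of this gap in the shared signs was not tested. Among the 119 genes picked out by rule, 117 had the same sign and 96 were called. PDF1.1 was at 7.00 (adjusted p = 1.65e-07) in flight, RAP2.3 at −5.75 (adjusted p = 2.15e-07) and HSP17.6A at 8.33 (adjusted p = 1.16e-08). DCR was at 0.14 (adjusted p = 0.903) and SGR2 at −0.17 (adjusted p = 0.886), neither called. A limma test of the difference between the ground and flight contrasts called 0 probe sets after adjustment, with 1479 at an unadjusted p under 0.05.

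**Figure D5:**
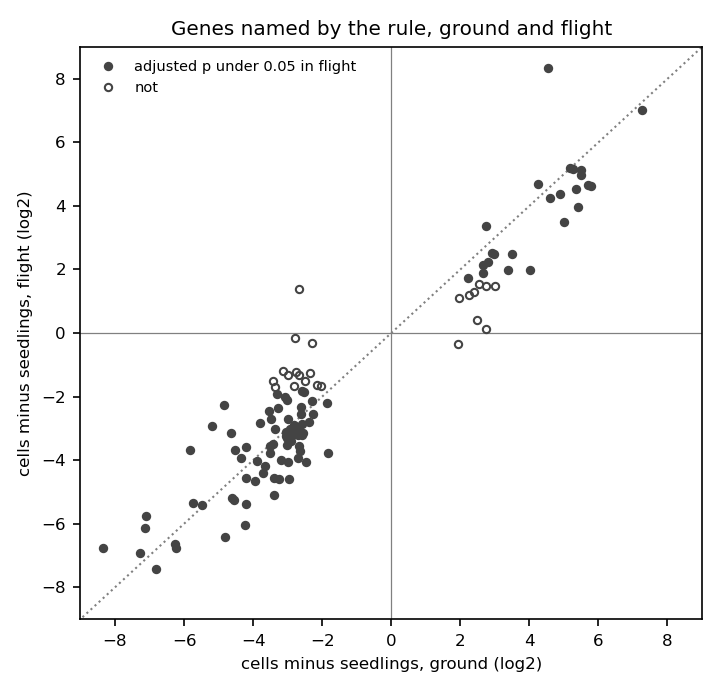
Each point is one of the 119 genes named by rule, with its cells minus seedlings difference (log2) on the ground against that in flight, and the dotted line marks equality. Filled points were called in flight (96), and 117 lie in the quadrants of equal sign. The genes were chosen by their ground differences, so a smaller size in flight is not a result.

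Canister and material were nearly the same thing on the ground. The cells were in canisters B (4 arrays) and G (2 arrays), and the seedlings in canisters A (5 arrays) and G (1 array). Within canister G alone a limma fit, in which the lone seedling array is assumed to vary like the cells, called 0 probe sets after adjustment and 917 at an unadjusted p under 0.05. There 3663 of the 3686 calls had the same sign, and 220 of 220 and 2117 of 2123 among those above background. The arrays of canister G are among those that gave the calls, so shared signs are largely given in advance. These counts therefore do not test the part of the canister. Storage before use, at room temperature for cells and at 4 °C for seeds, and the array measures above also differed with the material and cannot be told apart from it.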

How the data were processed

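Signal intensities of 24 ATH1 arrays were analysed as deposited. Per the submitters' processing notes they were made with MAS5 in Affymetrix Expression Console, of unstated version. The deposited intensity values share a 2% trimmed mean of 500 on every array, so each array had been scaled as a whole, and an array with few signals was scaled up. The authors' tables of p-values and q-values with log2 fold changes cover flight against ground and were used only for probe annotation. Of 22810 probe sets, 64 control probe sets were left out and 22746 tested. Of these, 21616 pair with 1 gene, 819 with several, 176 are named by the file's ID alone and 135 have no gene. Levels of different probe sets are not compared.

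The 12 ground arrays were taken as log2(value + 16), quantile normalized together, and fitted with limma 3.58.1 (R 4.3.3; lmFit and eBayes, two-sided, Benjamini-Hochberg over all probe sets, threshold 0.05). Array measures were tested by exact permutation over arrays, two-sided, and adjusted over the 13. The 12 flight arrays were fitted likewise with their own normalization. The fit was tested on simulated data. Named genes are the 10 largest rises and 10 largest falls with groups that do not overlap and signal above background on all 6 brighter arrays, up to 3 called members of each list in each direction above background on at least 5 of 6 (or the member with the smallest p where none is called), and floral and seed genes above background in cells: 119 genes, most of which are described. Members and lists were chosen with earlier results of these data known. Labels call the 6 arrays of each group replicates, and p-values measure only the spread between them. The number of arrays limits the precision. Most labelled hardware positions occur in both groups, while that of seedling replicates 1 and 6 held no cells. Arrays of the same position did not deviate together (r −0.0161 to 0.0103 over 6 pairs), so they were not treated as pairs. No sequences or coordinates are given, since no genome was used. A few results on single genes are not reported here.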

Additional observations from a re-analysis of the deposited data

Results flagged for a closer look

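A value is given here where the highest or lowest of a group's 6 arrays stood further from its nearest neighbour, as a share of the group's whole range, than Dixon's 95% limit for 6 values. Chance alone does this in about 1 in 20 groups. Seedling replicate 1 accounts for most of them.

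Among array measures, seedling replicate 1 had a median correlation of 0.689 with its own group and held 27.3% of its signal in its 100 brightest probe sets. Cell replicate 4 had a log2 actin 3' over 5' ratio of −2.71.

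On seedling replicate 1 the following log2 levels were the highest of the group: HSP17.6A at 15.64, ADH1 at 15.37, SEN1 at 15.14, DIN2 at 14.46, ICL at 14.25 and SUS4 at 11.82. These are genes of heat, low oxygen, carbon starvation and lipid use.

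Wall and water channel genes were lowest on it: GAMMA-TIP at 10.63, TIP1;2 at 10.62, PIP1A at 9.62, XTH18 at 9.78, XTH28 at 8.99, XTH4 at 8.10, FLA9 at 7.99, AGP4 at 7.66 and EXPA11 at 5.77. So were the tubulin genes TUB6 at 9.31 and TUB5 at 8.11.

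Genes of the endodermis, surface and vasculature were also lowest on it: PYK10 at 11.42, AZI1 at 9.28, FDH at 7.69, EARLI1 at 6.98, ESB1 at 6.21, CASP2 at 6.18, PP2-A1 at 5.99 and MYB36 at 5.79. Among hormone and oxygen genes the lowest levels were RAP2.3 at 17.22, PR4 at 11.74, RAP2.2 at 10.61, RAP2.12 at 9.54, IAA28 at 8.62 and GASA14 at 7.63. Among enzymes, transporters and a ribosomal protein they were CAT3 at 14.26, AT5G02450 at 10.89, GSTF9 at 10.33, GSTF10 at 10.12, CYP83B1 at 9.93, GLN1;3 at 9.91, NRT1.1 at 8.60, NRT1.5 at 6.70 and 4CL1 at 5.41.

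Single cell arrays stood apart in 5 genes. These were PIP1A at 11.23 on replicate 6, LOX1 at 10.44 and RS27A at 4.82 on replicate 1, and XTH28 at 9.98 and HSP17.6A at 8.92 on replicate 2.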

How the results depend on the processing

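The counts of 3686 calls, 1485 higher and 2201 lower depended on the scaling and the dimness limit more than the directions did. In total, higher and lower, the counts were 7800, 5693 and 2107 without quantile normalization, 5838, 2297 and 3541 with arrays centred on the 75th percentile, and 11066, 82 and 10984 centred on the spiked controls, a setting chosen after seeing the data. The higher count moved to 367 with probe sets above background on at least 6 of 12 arrays and to 778 with the brighter 50%. Calls above background in the brighter group, also chosen afterwards, numbered 2343 with 220 higher. With canister as a random block there were 5629 calls, 2525 of them higher. The fitted correlation within canisters was negative, at −0.0665, and canister nearly coincided with material, so this larger count does not test the part of the canister. The position number as a replicate block left 2194 calls, 807 higher and 1387 lower, and the arrays are not paired by it. Testing for a difference over 1 log2 unit left 485, 119 and 366, and an adjusted p under 0.01 left 1395, 453 and 942. Leaving out each array in turn gave 2376 to 3800 calls, 871 to 1562 higher and 1505 to 2238 lower. Without seedling replicate 2 there were 2395 calls and without seedling replicate 6 2376, and the higher count was 871 without either, 975 without seedling replicate 3 and 952 without seedling replicate 4. The cause of these shifts was not tested. With spike centring 9 of the 33 rises among the 119 named genes fell below 0. None of the 119 changed sign under the other alternatives listed for them in the fit of the ground arrays, and 12 lost their call with 75th percentile centring, 6 without quantile normalization, 14 with the replicate block, 68 with the test over 1 log2 unit and 119 within canister G. The difference in percent above background (−31.3) and the 3594 ground calls with the same sign in flight kept their direction under each alternative run. High background limits what cells show: 9920 probe sets were above it on no cell array, against 5239 on no seedling array.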
